A study of Saccharomyces cerevisiae with 161 samples.

Results

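Chromosomes I and VI are the 2 shortest of the 16 nuclear chromosomes of budding yeast, and the genes described here are those whose SK1 identifiers place them on one of them. The identifiers give 88 genes on chromosome I and 123 on chromosome VI, together 211 of the 5508 genes in the table of transcript levels. The other 14 chromosomes hold 5291 genes of that table, and the remaining 6 are listed by symbols of mitochondrial genes. All levels come from 1 RNA-seq library of wild-type cells (genotype H119) of the SK1 background, labelled as a reanalysis of an earlier deposit and taken 3 h after meiotic induction by the label, whereas a figure legend of the study names an earlier hour. SK1 is a strain background that enters meiosis with high synchrony. Beside the levels stand peak lists from chromatin immunoprecipitation of the proteins Red1, Hop1 and Rec8 from wild-type cells at 3 h, with the replicates of a protein combined before calling. Red1 has 4 such samples (3 of genotype H119 and 1 of H6408, labelled SMC4-PK9), Hop1 has 4 (1 of H119, 2 of H574 and 1 of H6408), and Rec8 has 2 of H4471, precipitated with an antibody to HA.

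Red1 and Hop1 are proteins of the meiotic chromosome axis, the scaffold from which chromatin loops emanate, and Rec8 is the cohesin subunit that brings both to its own binding sites. Short chromosomes of budding yeast are known for dense axis proteins and dense recombination, which helps each of them to obtain a crossover. Cohesin and axis proteins gather toward the ends of genes, where transcribed regions meet. Genes next to telomeres are known to include repeated families and to be often weakly transcribed.

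TPM is a transcript level corrected for gene length and scaled so that all genes sum to 1000000. It can be compared between genes but holds no trace of how many reads lie behind it, so sequencing depth is unknown here. As the library was single, values have no replicate error and no test was made. Chromosomes are compared by their values and by their rank among 16, and correlations across genes or chromosomes are descriptions. The files pair the SK1 identifiers with no gene names, and none of the 211 was found in the S288C gene table, so no function is given for any gene and no sequence is shown. Gene order was taken from the number in the identifier. These numbers increase in steps of 10. Up to the highest listed number, none is missing on chromosome I, and 1 is missing on chromosome VI, before its first listed gene. Chromosome I has 1 extra identifier between steps. Whether numbers are missing beyond the highest listed one cannot be seen. Neighbours in the table are thus neighbours in the numbering. Positions of the genes in base pairs were not used here.

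The median level on chromosomes I and VI was close to that elsewhere, and the spread was wider by most measures. The median was 61.7 TPM on chromosome I, with quartiles of 24.3 and 128 TPM, and 79.8 TPM on chromosome VI, with quartiles of 38.8 and 223 TPM. The median of all genes on the other 14 chromosomes was 72.3 TPM, with quartiles of 36.2 and 152 TPM. Chromosome I ranked 14th of 16 by its median and chromosome VI ranked 3rd. The medians of the other 14 chromosomes lay between 58.7 TPM on chromosome VIII and 96.1 TPM on chromosome V, so both chromosomes fell inside the range of the rest. On the log2 scale the median of chromosome I differed by −0.23 from the median of the other 14, and that of chromosome VI by 0.14. The 2 medians thus lay on opposite sides of that of the other 14. Both differences were inside the range of single chromosomes there, −0.30 (VIII) to 0.41 (V). Among genes of at most 400 TPM the difference of chromosome VI was −0.01. By the mean of log2(TPM + 1), chromosome I was below each of the other 14, with 5.85 against 6.08 (VIII) to 6.57 (V). Chromosome VI, with 6.53, was inside that range.

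By 2 measures of spread they ranked 1st and 2nd. The SD of log2(TPM + 1) was 2.03 on chromosome I and 1.95 on chromosome VI, the highest and the next highest of 16, against 1.55 to 1.87 on the other 14 chromosomes one by one. The upper quartile was 5.25 times the lower quartile on chromosome I and 5.74 times on chromosome VI, whereas the other 14 had ratios between 3.54 on chromosome VII and 4.82 on chromosome XIII. By the ratio of the 90th to the 10th percentile, chromosome VI ranked 1st with 36.5, and chromosome I ranked 3rd with 24.5, inside the range of the other 14 (14.5 on VII to 28.1 on IX). The lower quartile and the upper quartile of chromosome I were both the lowest of the 16 chromosomes, and the upper quartile of chromosome VI was the highest.

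**Figure D1:**
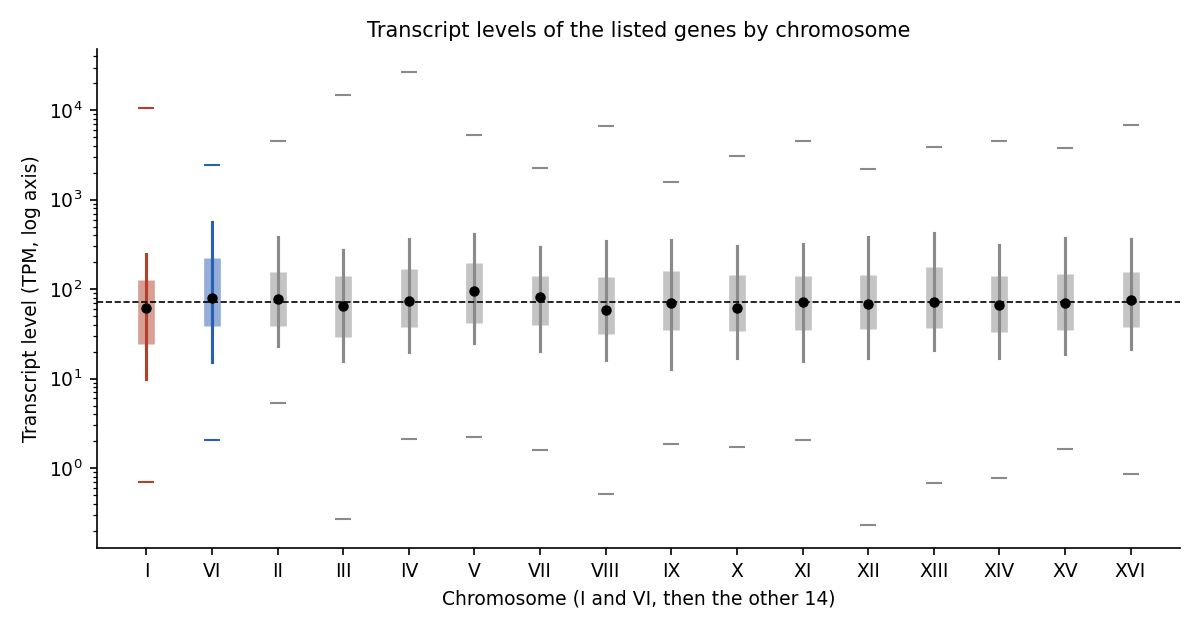
Transcript levels in TPM (log axis) of the genes of each chromosome, with chromosomes I (red) and VI (blue) followed by the other 14 (grey). The dot is the median, the thick bar spans the quartiles, the thin line spans the 10th to the 90th percentile, short dashes mark the lowest and highest gene, and the dashed line is the median of all genes (72.2 TPM). The medians of chromosomes I (61.7 TPM) and VI (79.8 TPM) lie inside the range of the others, and their quartile bars are the 2 longest.

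Genes far below the typical level took the largest share on chromosome I, and genes far above it on chromosome VI. A gene was counted as high when its level was at least 4-fold above the median of all genes, which is 289 TPM or more, and as low when it was at least 4-fold below, which is 18.0 TPM or less. Of all 5508 genes, 13.0% were high and 9.68% were low. On chromosome I, 7 of 88 genes (7.95%) were high, the lowest share of the 16 chromosomes, and 17 (19.3%) were low, the highest share. On chromosome VI, 25 of 123 genes (20.3%) were high, the highest share of the 16 chromosomes, and 15 (12.2%) were low, which ranked 5th. The other 14 chromosomes had 9.52% (III) to 17.1% (II) high genes and 6.56% (II) to 13.3% (IX) low genes. Near the limits, chromosome I had genes at 327 and 256 TPM on either side of the upper one, and chromosome VI at 297 and 256 TPM.

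A single gene carried much of the output of chromosome I. SK1_01G00150, the 16th gene in the order, had 10641 TPM, 147 times the median of all genes and 49.0% of the summed TPM of chromosome I. The next highest gene there had 1592 TPM. Because of this gene the mean of chromosome I was 247 TPM, the 2nd highest of 16 behind chromosome III, although its median was among the lowest. Without it the mean was 127 TPM, the lowest of the 16 chromosomes when each was taken without its highest gene. Chromosome VI had no such gene. Its highest was SK1_06G00990, the 98th in the order, with 2476 TPM or 8.77% of the summed TPM, followed closely by genes at 2397 and 2382 TPM. Its mean was 229.6 TPM, and without the highest gene it was 211 TPM, the highest of the 16 chromosomes on that measure. Thus the high mean of chromosome I rested on a single gene and that of chromosome VI did not. At the other extreme, the lowest genes were SK1_01G00030 with 0.698 TPM and SK1_06G00100 with 2.06 TPM, which are the 4th and the 9th gene of their chromosomes in the order.

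Summed over the length of the chromosome, the output per kb was similar on both. The summed TPM per kb was 101 on each of chromosomes I and VI, against 64.1 to 116 on the other 14 chromosomes. Without the highest gene of each chromosome it was 51.6 on chromosome I, the lowest of 16, and 91.9 on chromosome VI, the 2nd highest. Listed genes were sparser on both chromosomes than elsewhere, with 4.10 genes per 10 kb on chromosome I and 4.39 on chromosome VI, against 4.46 (III) to 4.92 (XVI) on the other 14. Lengths here are the stretches that the peak lists reach, 214 kb for chromosome I and 280.5 kb for chromosome VI. Genes can lie outside these spans.

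Along the gene order, 11 of the 17 low genes of chromosome I lay within 10 places of an end, against 4 of the 15 low genes of chromosome VI. The first 8 genes of chromosome I had, in order, 3.76, 7.17, 34.0, 0.698, 3.27, 6.70, 9.08 and 25.9 TPM. All 8 lay below the median of all genes, which made this the longest run below the median on chromosome I. They were followed by genes at 440 and 115 TPM. At the other end, the last 9 genes had 17.7, 6.70, 20.9, 1249, 162, 14.4, 45.4, 2.98 and 1.18 TPM. Of these 9 genes 5 were low and 1 was high, and the last 2 were among the lowest of the chromosome.

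The first 10 genes of chromosome I had a median of 8.13 TPM, the lowest of all 32 ends of the 16 chromosomes. Its last 10 genes had a median of 19.3 TPM, the 8th lowest. For the 28 ends of the other 14 chromosomes, this median ranged from 12.8 to 219 TPM around a middle value of 42.3 TPM. The ends were not equally complete in the numbering. On chromosome II 5 numbers were missing and on chromosome VI 1, all before the first listed gene. Up to the highest listed numbers, 43 were missing over the 16 chromosomes. The 2 ends of chromosome VI were unlike each other, with 28.0 TPM for the first 10 genes and 169 TPM for the last 10. The value of the last end was the 2nd highest of the 32 ends. It held 4 high genes with 425, 1448, 743 and 421 TPM. The 3 outermost genes, with 4.00, 23.2 and 23.8 TPM, and the 115th gene, with 50.3 TPM, lay below the median of all genes.

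Since a short chromosome has a larger part of its genes near an end, the genes were also compared at like distances from the nearer end. Genes within 10 places of an end made up 22.7% of the genes on chromosome I and 16.3% on chromosome VI, against 5.29% on the other 14 chromosomes. Among these, 11 of 20 (55%) were low on chromosome I, 4 of 20 (20.0%) on chromosome VI and 85 of 280 (30.4%) on the other 14. Places were counted from the outermost listed genes, also where outer numbers were missing. Farther than 10 places from an end, 8.82% of the 68 genes of chromosome I, 10.7% of the 103 genes of chromosome VI and 8.18% of the 5011 genes of the other 14 were low. The share of low genes on chromosome I was thus close to that of the other 14 once 10 genes at each end were set aside. The share of high genes on chromosome VI was not, as 20.4% of its genes beyond these 10 places were high, against 13.2% on the other 14 chromosomes. How reads that match more than 1 gene were counted is not given in the sources used here, which bears on repeated genes near the ends.

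The course along the order was therefore different on the 2 chromosomes. With the gene order split into 5 parts of equal gene number, chromosome I had medians of 37.0, 93.4, 65.3, 68.9 and 45.4 TPM, low at both ends. Chromosome VI had medians of 35.2, 100.3, 117, 104 and 119.8 TPM, low only in the first. Of the 80 such parts of the 16 chromosomes, the first of chromosome VI and the first of chromosome I were the lowest and the next lowest, and the last of chromosome I was the 3rd lowest. The other 4 parts of chromosome VI all ranked among the 6 highest. The ratio of the highest to the lowest part was 2.52 on chromosome I and 3.41 on chromosome VI, against 1.17 (VII) to 1.90 (V) on the other 14. Parts of short chromosomes hold fewer genes, 17 or 18 on chromosome I and 24 or 25 on chromosome VI, so their medians rest on fewer values than those of longer chromosomes.

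Spearman's rho between the level and the distance to the nearer end was 0.28 on chromosome I (88 genes) and 0.21 on chromosome VI (123 genes), against −0.02 (II) to 0.24 (XIV) on the other 14. Between the level and the place in the order, rho was 0.03 on chromosome I and 0.24 on chromosome VI. The other 14 chromosomes ranged from −0.13 (III) to 0.08 (XII) on this measure. Without the 10 outermost genes at each end, rho with the distance to the nearer end was −0.06 on chromosome I and 0.15 on chromosome VI, and rho with the place in the order was 0.12 on chromosome VI.

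Over a window of 11 neighbouring genes, the running median of chromosome I was lowest at 9.08 TPM over its first 11 genes and reached at most 129 TPM, over places 29 to 39. Its highest value was below the highest of each of the other 14 chromosomes, the lowest of which was 169 TPM on chromosome II. The other 14 hold more genes, and so more windows from which a highest value is taken. On chromosome VI the running median was lowest at 20.5 TPM over places 5 to 15 and highest at 347 TPM over places 20 to 30, which was above the highest of each of the other 14 (up to 303 TPM on chromosome IV). The lowest and the highest window of chromosome VI were thus only a few genes apart. Places 7 to 19 of chromosome VI formed the longest run below the median of all genes there, with 13 genes between 2.06 and 58.5 TPM. On the other 14 chromosomes, all of which have more genes, this run was 6 to 11 genes long.

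**Figure D2:**
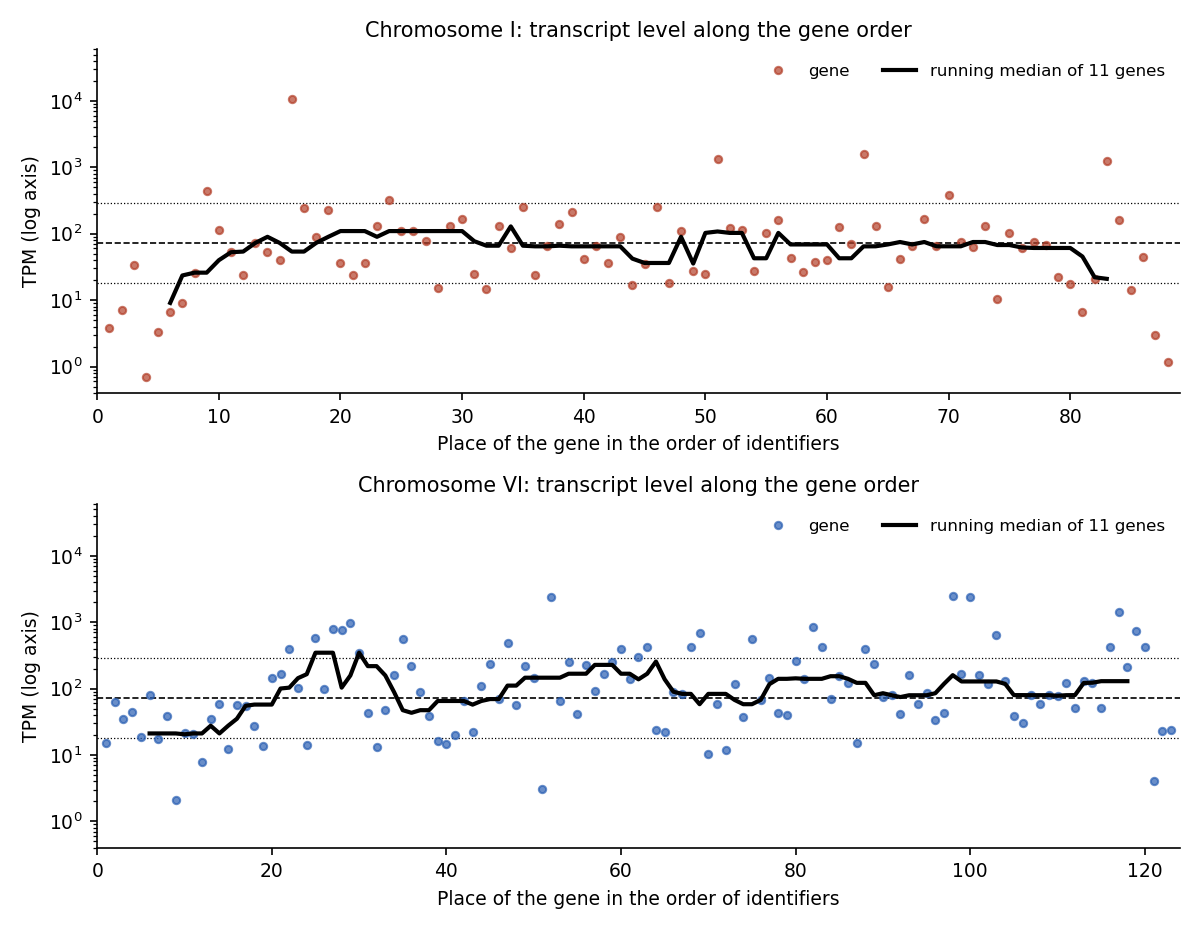
Level of each gene in TPM (log axis) against its place in the order of identifiers, for chromosome I (upper panel, 88 genes) and chromosome VI (lower panel, 123 genes). Dots are genes, the black line is the running median of 11 genes, the dashed line is the median of all genes (72.2 TPM), and dotted lines mark 4-fold above and below it. On chromosome I the running median is lowest over the first 11 genes (9.08 TPM), and on chromosome VI it climbs to 347 TPM over places 20 to 30.

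Neighbouring genes on chromosomes VI and I had the highest rank correlations of level among the 16 chromosomes, with chromosome III close behind. Spearman's rho between the levels of neighbours was 0.30 over the 122 pairs of chromosome VI and 0.23 over the 87 pairs of chromosome I. The other 14 had values between −0.04 (XI) and 0.22 (III), and 0.09 when the ranks within each of them were pooled over 5277 pairs. With pairs limited to identifiers 10 apart, which sets aside the extra identifier, rho was 0.20 on chromosome I, 3rd of 16 and just below the highest of the other 14, and stayed at 0.30 on chromosome VI, the highest of 16. Each gene enters 2 pairs, and all pairs come from 1 library, so these are descriptions. Chromosomes I, VI and III also had the fewest pairs, with 146 on III and 194 or more on each longer chromosome. Their values thus rest on fewer pairs than the rest.

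The similarity faded within a few genes. At a distance of 2 genes rho was 0.27 on chromosome VI, 0.02 on chromosome I and 0.004 on the pooled other 14 chromosomes. At distances of 3 to 10 genes it ranged from −0.07 to 0.16 on chromosome VI and from −0.10 to 0.15 on chromosome I. On the pooled other 14 chromosomes it stayed between −0.006 and 0.04. Taken one by one at these distances, the other 14 ranged from −0.12 (XI) to 0.19 (XIV), so chromosomes VI and I were inside their range.

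**Figure D3:**
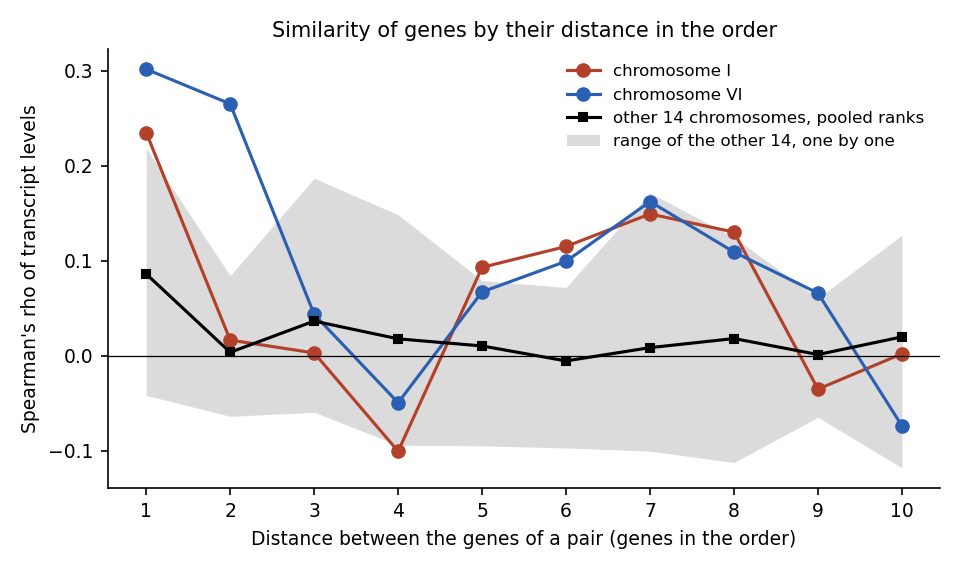
Spearman's rho between the levels of 2 genes against their distance in the gene order, for chromosome I (red), chromosome VI (blue) and the ranks of the other 14 chromosomes pooled (black). The grey band spans the lowest to the highest of the other 14 taken one by one. Neighbours reach 0.23 on chromosome I and 0.30 on chromosome VI, and at distance 2 only chromosome VI stays high (0.27).

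The 2 values of neighbour similarity came from different genes. On chromosome I the similarity lay at the ends. Without the 10 outermost genes at each end rho of neighbours was −0.03 over 67 pairs, 15th of the 16 chromosomes treated in the same way, and without genes under 10 TPM it was 0.01. Leaving out only the first 10 genes, a choice made after seeing the data, gave 0.09. On chromosome VI rho was 0.22 over 102 pairs without the outermost genes and 0.32 without genes under 10 TPM, the highest of the 16 chromosomes in both cases. Without the first 19 genes, up to the end of the long run below the median and likewise chosen after seeing the data, it was 0.19.

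In counts of neighbours, both genes of a pair lay on the same side of the median of all genes in 51.7% of the pairs of chromosome I, 11th of 16, and in 60.7% of those of chromosome VI, the highest share, against 53.3% on the other 14. By this count neighbours on chromosome I were no more alike than elsewhere. Both genes were low in 6 of the 87 pairs of chromosome I (6.90%), the highest share of the 16 chromosomes, and in 1 of the 122 pairs of chromosome VI (0.82%), against 71 of 5277 pairs (1.35%) on the other 14. Both genes were high in no pair of chromosome I and in 8 pairs of chromosome VI (6.56%), again the highest share, against 111 pairs (2.103%) on the other 14. Of the 25 high genes of chromosome VI, 14 (56.0%) had a high neighbour, and of the 684 high genes of the other 14 chromosomes 203 (29.7%) had one. Where more genes are high, more pairs of high genes are also met, and the same holds for low genes. Where fewer genes are high, as on chromosome I, fewer pairs of high genes are met. None of the 7 high genes of chromosome I had a high neighbour.

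The high neighbours on chromosome VI were spread over the chromosome. The longest row of high genes covered places 27 to 30 with 799, 757, 973 and 347 TPM, and these 4 genes close the window with the highest running median. Other pairs stood at places 62 and 63 with 297 and 427 TPM, at 68 and 69 with 422 and 681 TPM, at 82 and 83 with 842 and 420 TPM, and at the last end. The other 14 chromosomes had at most 2 to 4 high genes in a row. On chromosome I the longest row of low genes covered places 4 to 7, and on the other 14 it was 2 to 5 genes long.

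Similarity was not the rule for every pair, even on chromosome VI. The 51st gene of chromosome VI had 3.07 TPM and the 52nd 2382 TPM, a 777-fold step between neighbours. On chromosome I the largest step was 267-fold, between the 15th gene with 39.9 TPM and the 16th with 10641 TPM. Largest steps on the other 14 chromosomes ranged from 134-fold (III) to 1470-fold (IV). The median difference between neighbours was 2.67-fold on chromosome I and 3.09-fold on chromosome VI, where all pairs of genes on the same chromosome differed by 3.37-fold and 3.65-fold. The difference between neighbours on chromosome VI was the largest of the 16, ahead of 3.04-fold on chromosome XI, and chromosome I ranked 9th. On the log2 scale the median difference of neighbours was 0.81 times that of all pairs on chromosome I, the lowest ratio of 16, and 0.87 times on chromosome VI, against 0.86 (III) to 1.04 (XI) on the other 14. By this measure chromosome VI was not apart from the rest.

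Red1 peaks covered 60.2% of chromosome I and 56.0% of chromosome VI, against 23.9% (V) to 47.2% (III) of the other 14 chromosomes. Hop1 peaks covered 62.5% of chromosome I and 56.8% of chromosome VI, against 22.9% to 46.7%. For Rec8 the shares were 32.01% of chromosome I and 33.0% of chromosome VI, against 23.1% to 29.6%. Each value comes from 1 list of peaks, so it has no replicate error. Most of the covered sequence was in wide peaks, since the 8 Red1 peaks over 5 kb held 67.97% of the covered base pairs on chromosome I and the 14 on chromosome VI held 83.0%. This share was computed for these 2 chromosomes only. The widest were 16253 bp on chromosome I, from 125968 to 142220 in SK1 coordinates, and 20660 bp on chromosome VI, from 211744 to 232403. On the other 14 the widest Red1 peak measured 7373 bp (V) to 28539 bp (VII). Which genes the peaks overlap was not examined.

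Along the 2 chromosomes, the coverage by Red1 peaks did not run parallel to the median transcript level. With the span split into 5 parts of equal length, Red1 peaks covered 19.9%, 54.4%, 83.8%, 76.9% and 65.9% of chromosome I. Its first part was thus the least covered, and the first part in gene order held the lowest median level. Its last part, also with a low median level of 45.4 TPM, was covered to 65.9%. On chromosome VI the shares were 57.1%, 61.7%, 39.7%, 73.8% and 47.7%. There the first part, with the lowest median level of 35.2 TPM, was covered about as much as the chromosome as a whole, and the least covered part was the middle one, with a median of 117 TPM. A part of the span and a part of the gene order need not hold the same genes.

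**Figure D4:**
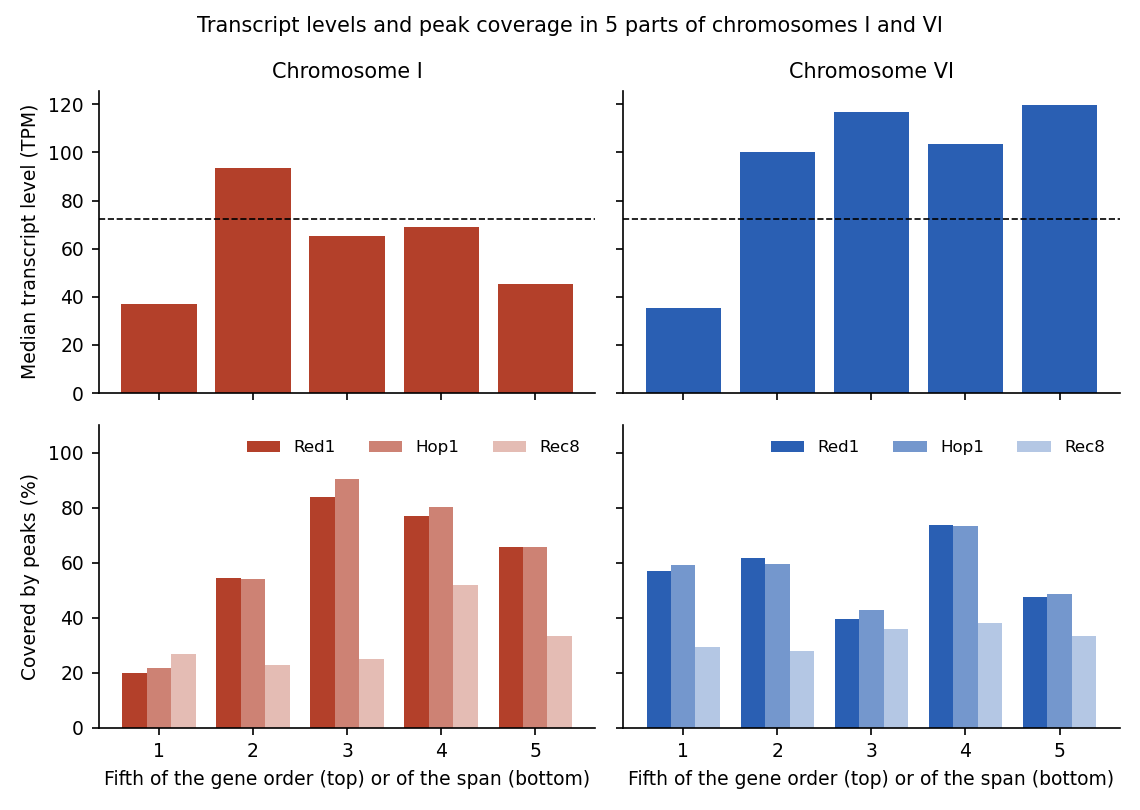
Median transcript level in TPM in 5 parts of the gene order (upper panels, dashed line at the median of all genes, 72.2 TPM) and percentage of each of 5 parts of the span covered by Red1, Hop1 and Rec8 peaks (lower panels, dark to light), for chromosome I (left, red) and chromosome VI (right, blue). The first part has a median of 37.0 TPM on chromosome I and 35.2 TPM on chromosome VI, and its Red1 coverage is 19.9% on chromosome I and 57.1% on chromosome VI.

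Across the 16 chromosomes, a larger share covered by Red1 peaks went with a larger share of low genes. Spearman's rho between these shares was 0.72 (Pearson's r = 0.76), and 0.61 (r = 0.57) over the 14 chromosomes without I and VI. This relation was not recomputed without the genes near the ends. Such genes were more often low than those farther in, on chromosomes I and VI and on the other 14. They also made up a larger part of the genes on chromosomes I and VI than elsewhere. What the ends contribute to the relation was not tested. Between the Red1 share and the median level rho was −0.43 (r = −0.28) over 16 chromosomes and −0.57 (r = −0.47) without I and VI. With 10 genes at each end left out of the medians, rho was −0.27 and r was −0.0051, so the linear relation over 16 chromosomes was not seen there. Chromosome VI, which has the 2nd highest Red1 share and the 3rd highest median, departed from this order. Between the Red1 share and the neighbour similarity r was 0.72 and rho 0.36 over 16 chromosomes. Without I, III and VI, the 3 shortest, r was −0.06 and rho −0.19, so this relation rested on the 3 shortest chromosomes, which had the 3 highest values of both. The Red1 share was itself related to the length of the span (rho = −0.69), and share and length cannot be told apart on these 3 chromosomes. The points share the same library, the same peak list and the same definition of length.

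**Figure D5:**
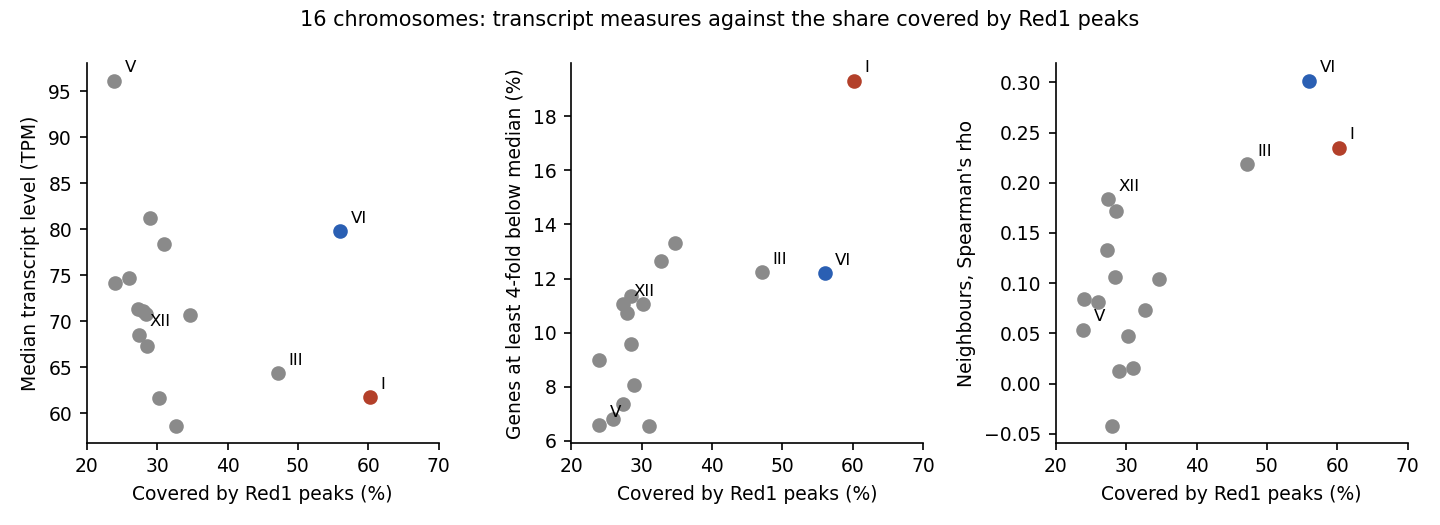
The 16 chromosomes by the percentage covered by Red1 peaks (horizontal axes) and, from left to right, by the median transcript level in TPM, the percentage of genes at least 4-fold below the median of all genes, and Spearman's rho of neighbouring genes. Chromosomes I (red) and VI (blue) lie at 60.2% and 56.0% covered, grey dots are the other 14, and III, V and XII are named. In the right panel I, III and VI hold the 3 highest values of rho, 0.23, 0.22 and 0.30.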

How the data were processed

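The wild-type RNA-seq levels, deposited by the authors as TPM, were analysed beside the wild-type peak lists. Messenger RNA was taken with oligo-dT beads and a strand-specific kit was used, per the labels. The submitters' processing notes name Bowtie, TopHat2, featureCounts, edgeR and MACS2 2.1.1, and a filter on genes is not given in the sources used here. No gene was at 0 TPM. The peaks were called by the authors with MACS on combined replicates mapped to the SK1 genome, and the deposited lists give the peak's fold enrichment over input, which is not used in the text, and the −log10 q-value. The list of Red1 summits was not used.

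Genes were placed by the number in their SK1 identifier. A chromosome's span covers everything between its outermost peaks over all lists. S288C positions were not used, because chromosome VI reaches 290006 in the lists against a length of 270161 in S288C. For log2 values, 1 was added to the TPM. Genes were named by a rule, the highest and the lowest of each of chromosomes I and VI, and other genes are given by place. The members, measures and limits were chosen with earlier results of these data known, and the comparisons by distance class, by counts of neighbours and across chromosomes other than that of the median level were added after the values were seen. The calculation of neighbour similarity was checked on simulated chromosomes with known neighbour correlation and the gene numbers of chromosomes I, IV and VI. Run lengths, differences of pairs and coverage were checked on small examples with known answers. Other calculations were not checked by simulation. Python 3.11.15, NumPy 2.4.6, pandas 2.3.3, SciPy 1.17.1 and matplotlib 3.10.9 were used. In all, 22 alternatives were listed, and 2 that leave out the first genes of a chromosome were added after seeing the data.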

Additional observations from a re-analysis of the deposited data

How the results depend on the processing

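With an 8-fold limit in place of 4-fold, chromosome I had 4 high (4.55%) and 8 low genes (9.09%) and chromosome VI had 12 high (9.76%) and 4 low genes (3.25%), against 5.48% high and 3.16% low over all genes. The high share of chromosome I and the low share of chromosome VI were then near those of all genes. Without 10 genes at each end chromosome I had 6 low genes of 68 (8.82%) by the 4-fold limit. The share over all chromosomes, trimmed in the same way, was 8.24%. With these end genes left out, rho with the distance to the nearer end was −0.062 on chromosome I, and among genes of at least 10 TPM it was 0.027. Neighbour similarity on chromosome I was −0.026 and 0.0087 under the same alternatives. Covered shares were 59.0% (I) and 54.1% (VI) with lengths counted from coordinate 1, 62.5% and 56.8% for Hop1 peaks and 32.01% and 33.0% for Rec8 peaks. They were 60.2% and 55.8% with peaks of a −log10 q-value of at least 5. The log2 ratio of the median to that of the other 14 chromosomes was negative for chromosome I throughout, from −0.25 to −0.12. For chromosome VI this ratio was positive, up to 0.28, except among genes of at most 400 TPM, where it was −0.01. With the mean of log2 levels in place of the median, the difference was −0.48 to −0.32 for chromosome I. It was 0.23 for chromosome VI. Over chromosomes, rho between Red1 share and median level was negative throughout, from −0.57 to −0.24, whereas Pearson's r was −0.0051 without 10 genes at each end. No paired analysis was possible because there is 1 RNA-seq library and each peak list combines its replicates. The depth of the libraries is unknown.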
